A study of Etroplus suratensis with 2 samples.

Results

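The RNA of *Etroplus suratensis*, the green chromide, a cichlid that lives in the brackish waters of southern India and Sri Lanka, was assembled into 96646 contigs. Of these, 43 were abundant in both pooled libraries, with the male and female levels of each contig within 2-fold of each other. They were chosen by their measured values, as the contigs with at least 300 CPM in each pool (reads per 1000000 reads counted in that library) and a male to female ratio of CPM from 0.5 to 2. The count, the CPM values, the ranks by CPM and the ratios below therefore describe the choice and are not tests of it. One library came from males and pooled brain, liver, kidney, spleen, muscle and testis. The other came from females and pooled the same organs with ovary in place of testis. The organs were frozen on dry ice, no treatment is named, and neither the number and age of the fish nor the amount of each organ in a pool is given in the labels. With 1 library per sex there was no replicate, so no test was possible. Every interval below of a share of reads or of a ratio covers counting error only.

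In a mixed-organ library the number of reads on a transcript follows its copies per cell, the number and size of the cells that make it, the share of that organ in the pool and its length. A long transcript is cut into more fragments and gathers more reads than a short one at the same copy number, which FPKM corrects by dividing by length. In vertebrate tissues the heaviest polyadenylated RNAs are commonly those of mitochondrial genes, ribosomal proteins, translation factors, the cytoskeleton, muscle contraction and secreted liver proteins. The table pairs no gene name, protein or sequence with any contig, so none of the 43 is assigned to these groups here. The pools shared 5 organs, but no value in the table says from which organ a read came. Whether the 43 contigs come from the shared organs was not tested. Fewer cells of a type and less RNA per cell cannot be told apart in such pools.

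Counts over all contigs summed to 19788173 in the male and 24649400 in the female library, so that each of the 43 contigs rested on many reads. TRINITY_DN18631_c2_g1, the contig closest to the minimum in both pools, had 6350 male and 7766 female reads, or 321 and 315 CPM.

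By CPM, contigs that were abundant in both pools at similar levels were a minority of the abundant contigs, but under 3 of the 5 scalings tried they were most of those abundant in both. Among these 3, the scaling that sets the median ratio of contigs abundant in both pools to 1 centres them in the window by construction. At least 300 CPM was reached by 371 male and 406 female contigs, 647 different ones in all, and 130 reached it in both pools. The 43 contigs were 33.1% of those 130 and 6.65% of the 647. They made up 11.6% of the male-abundant and 10.6% of the female-abundant contigs, and 0.0445% of all contigs. Among all 52729 contigs with at least 10 reads over both pools, 26.8% had a ratio from 0.5 to 2. Of the other 87 contigs abundant in both pools by CPM, 84 exceeded the window on the male side and 3 on the female side, and the median male to female ratio of the 84 was 2.94.

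Both the membership and the direction of the 43 contigs depended on how the libraries were set against each other. CPM treats the totals as equal. The median of ratios over the 74970 contigs with reads in both pools gave a male to female size ratio of 2 in place of 0.803, and edgeR's TMM gave 1.85. They multiply every ratio by 0.401 and 0.434, so that all 43 contigs had the lower level in the male pool under both, with a median ratio of 0.479 and 0.518. Only 52729 contigs had at least 10 reads over both pools, so contigs with fewer reads also entered the size ratio of 2. Their part in it was not tested. Over the 52729 contigs, some with reads in 1 pool only, the median male to female ratio of CPM was 2.68. Limited to the 4577 contigs with a mean count of at least 1000, the median of ratios gave a size ratio of 0.599. Under the median of ratios 143 of the 180 contigs then abundant in both pools, or 79.4%, met the rule, with 21 above the window and 16 below it. Of these 143 contigs, 20 were among the 43 and 70 came from the 84 above. The other 23 of the 43 contigs fell below a ratio of 0.5.

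TMM gave much the same picture as the median of ratios, with 142 of 180 contigs, or 78.9%, inside the window, 25 above it and 13 below. Setting the median ratio of the 130 contigs abundant in both pools to 1 centres them by construction. It gave 143 of 180, with 24 above and 13 below. Of the 43 contigs, 23 met the rule under each of these 2 scalings. Restricting the median of ratios to 4577 contigs whose mean count reached 1000 moved ratios the other way, by a factor of 1.34. It put 36 of 120 contigs inside the window, 80 above and 4 below, and kept 26 of the 43. CPM and directions by CPM are given from here on, and under the 3 scalings with factors near 0.4 each of the 43 contigs lies lower in the male pool.

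**Figure D1:**
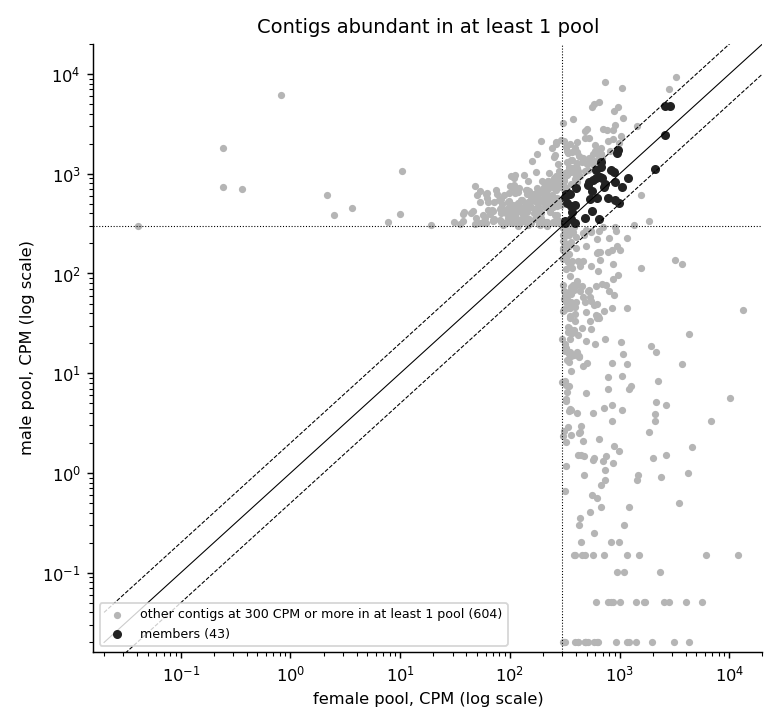
Male CPM against female CPM, both on log scales, for the 647 contigs with at least 300 CPM in at least 1 pool, with the 43 members in black. The solid line marks equal CPM, the dashed lines a ratio of 0.5 and of 2, the dotted lines 300 CPM, and contigs with no read in a pool are drawn at the lower edge. The 241 contigs abundant in the male pool alone form a cloud with a median of 146 CPM in the female pool, while the 276 abundant in the female pool alone reach down to no male read.

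The contigs abundant in 1 pool alone differed in what the other pool held. The 241 that reached 300 CPM in the male pool alone had a median of 146 CPM in the female pool, and 229 of them had at least 30 CPM there. The 276 that reached it in the female pool alone had a median of 16.4 CPM in the male pool, and 116 had at least 30. These 276 contigs held 26.6% of female counts and 1.59% of male counts. On the male side, the 241 contigs held 14.6% of male counts and 3.70% of female counts. The 84 contigs abundant in both pools and more than 2-fold higher in the male pool held 17.7% of male and 4.98% of female counts. A CPM is a share of a fixed total, so reads on such contigs lower the CPM of every other contig of their library. Their part in the ratios of the 43 contigs was not tested.

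By CPM, the share of contigs within 2-fold was lower in the classes with the highest geometric mean of the 2 CPM values. It was also lower there with the median of ratios limited to contigs with a mean count of at least 1000. With TMM and the unlimited median of ratios it was higher there. In classes by the geometric mean of the male and female CPM, 49.1% of 916 contigs at 100 to 300 CPM had a ratio from 0.5 to 2. At 300 to 1000 CPM it was 27.6% of 221 contigs, and at 1000 CPM or more 17.9% of 39 contigs. Contigs are not replicates, so these shares are given without intervals. The contigs more than 2-fold higher in the male pool took up 27.4%, 59.7% and 82.1% of the same classes. A low CPM in 1 pool lowers the geometric mean, so contigs abundant in 1 pool alone can fall in lower classes. Contigs more than 2-fold higher in the female pool numbered 28 at 300 to 1000 CPM and 0 above, though 276 were abundant in that pool alone. With the median of ratios the share within 2-fold was instead 39.0%, 62.9% and 71.8%, and with TMM 41.0%, 63.3% and 64.1%. Limited to contigs with a mean count of at least 1000, the median of ratios gave 45.3%, 21.3% and 7.69%. Counting contigs by a minimum CPM in both pools, the share within 2-fold by CPM was 52.5% at 10, 61.4% at 30, 56.4% at 100 and 33.1% at 300. At 1000 it was 4 of only 10 contigs. Of the 43 contigs, 36 lay at a geometric mean of 300 to 1000 CPM and 7 above it. By CPM the median ratio of all contigs in those classes was 2.38 and 2.83. The median of the 43 contigs, fixed in part by their choice, was 1.19.

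**Figure D2:**
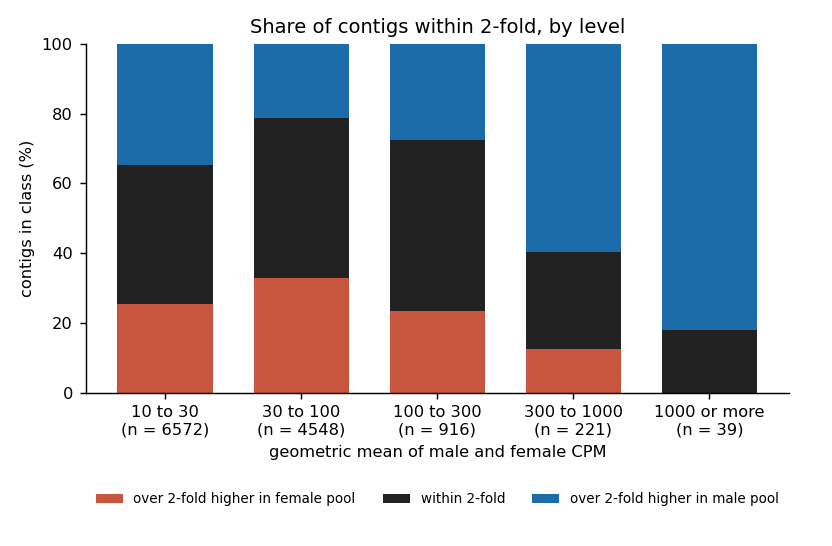
Percent of contigs within 2-fold (black), over 2-fold higher in the male pool (blue) and over 2-fold higher in the female pool (red), by the geometric mean of the 2 CPM values. Contigs with no read in a pool have a geometric mean of 0 and are in no class. The black part is 49.1% at 100 to 300 CPM and 17.9% at 1000 CPM or more. Under the median of ratios, which is not drawn, it would be 39.0% and 71.8%. With that median limited to contigs with a mean count of at least 1000, it would be 45.3% and 7.69%.

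Together the 43 contigs took up 4.18% of the male reads counted (95% Wilson interval 4.17 to 4.19), against 3.42% of the female reads (3.42 to 3.43). For comparison, the 43 contigs with most reads in a library held 14.5% in the male and 15.2% in the female pool. Summed over the 43 contigs, the male CPM was 1.22 times the female CPM. A few contigs carried much of this. The 3 with the highest mean CPM held 28.7% of the group's male reads and 23.6% of its female reads. The first 10 held 49.9% and 45.8%. Without the first 3 contigs the group held 2.98% of male and 2.62% of female counts, a ratio of 1.14.

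A set of 3 contigs stood above the others in both pools. TRINITY_DN19160_c3_g1, of 6219 bases and 49.2% GC, had 94437 male and 71248 female reads, or 4772 and 2890.5 CPM, and was the 9th most abundant contig of the male pool and the 18th of the female pool. TRINITY_DN17501_c6_g3, 3286 bases long with 52.1% GC, had 4777 and 2608 CPM and ranked 8th and 23rd. Both were higher in the male pool, at 1.65 times the female CPM (95% exact counting interval 1.64 to 1.67) and 1.83 times (1.81 to 1.85). TRINITY_DN18782_c2_g2, 2901 bases long with 46.9% GC, was nearly level, with 2455 male and 2578 female CPM, a ratio of 0.952 (0.941 to 0.963) and ranks 23 and 24. It was the only one of the 3 with the lower CPM in the male pool. None of the 43 contigs ranked among the 10 most abundant of the female pool, and no contig at all was among the 10 most abundant of both.

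The next contigs in order of mean CPM pointed in both directions. TRINITY_DN17045_c1_g3, 9019 bases long, had 1104 male and 2111 female CPM, and its ratio of 0.523 (0.515 to 0.531) was the lowest of the 43. TRINITY_DN18850_c0_g1 had 1730 male and 959 female CPM, and TRINITY_DN17274_c1_g9, with 39.2% GC, had 1629 and 943. Both were higher in the male pool, at 1.804 and 1.73 times the female CPM. TRINITY_DN18691_c0_g1 had 916 male and 1195 female CPM, a ratio of 0.766. The pair TRINITY_DN17336_c2_g3 and TRINITY_DN17336_c2_g8, which share a Trinity component, had ratios of 1.93 and 1.33, with 1308 and 1098 male CPM and 677 and 827 female CPM. TRINITY_DN17200_c1_g1, 3620 bases long, was close to level, with 1038 male and 878 female CPM and ranks 93 and 91.

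**Figure D3:**
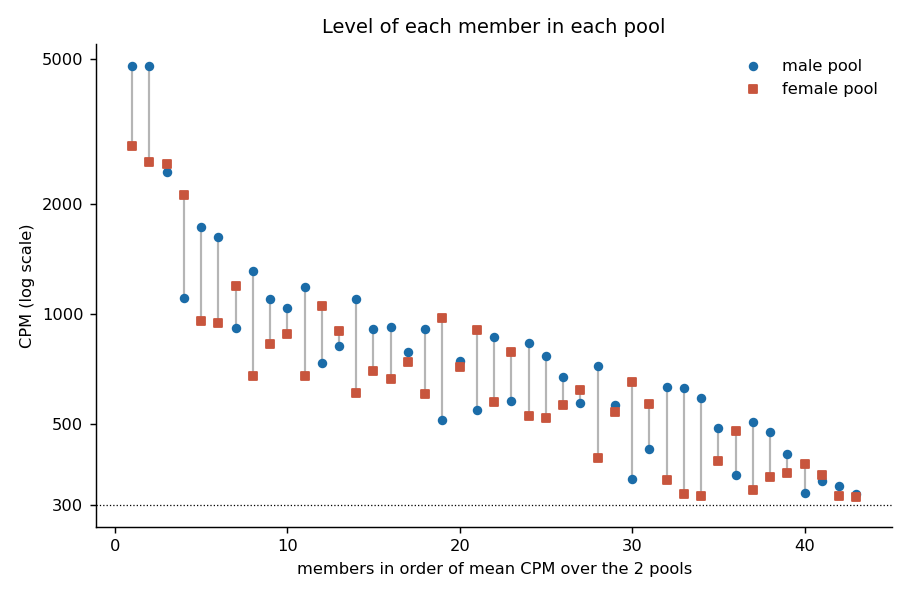
CPM of each of the 43 contigs in the male pool (blue circles) and the female pool (red squares), on a log scale, in order of the mean of both. A grey line joins the 2 values of a contig and the dotted line marks the minimum of 300 CPM. The male value is the higher one for 29 contigs by CPM and the female value for 14. Under TMM and the median of ratios the female value is the higher one for all 43. With the median of ratios limited to contigs with a mean count of at least 1000, the male value is the higher one for 37.

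Within the allowed range the ratios of CPM were spread out. The quartiles of the male to female ratio were 0.914 and 1.62. The male CPM was the higher for 29 contigs, or 67.4%, and the female CPM for 14. Among the 130 contigs abundant in both pools 86.9% were male-higher. The rule makes this gap, since 84 of the 87 contigs that the window left out had ratios above 2. Under TMM and the median of ratios none of the 43 was male-higher. With the median of ratios limited to contigs with a mean count of at least 1000, 37 were. A ratio of 1.5 to 2 was seen for 15 contigs, of 0.5 to 0.75 for 6, and from 0.8 to its inverse for 14. The exact counting interval lay wholly above 1 for 28 contigs and wholly below 1 for 14. It held 1 for TRINITY_DN18631_c2_g1 alone, at 1.02 (0.985 to 1.05). At this depth counting error was small against the window, and what other pools of the same sex would give is unknown.

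The limits of the rule cut through a continuous spread. Inside the upper limit of the ratio, TRINITY_DN18782_c2_g3 had 629 male and 321 female CPM and a ratio of 1.96, and its counting interval of 1.90 to 2.01 was the only one to cross a limit. The nearest contig outside had 835 male and 409 female CPM, a ratio of 2.04. Next to the lower limit the contigs were sparser. The nearest one outside had a ratio of 0.395, with 619 male and 1569 female CPM. Just below the minimum of CPM, one contig had 299 male and 344 female CPM and another 318 male and 298 female CPM.

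By rank, the 43 contigs lay in the uppermost 400 of both libraries. The minimum of 300 CPM largely sets this, since only 371 male and 406 female contigs reached it. Their ranks by CPM ran from 8 to 352 in the male pool, with a median of 153, and from 18 to 379 in the female pool, with a median of 156. Of the 19 contigs among the 100 most abundant of both pools, 7 belonged to the group, and of the 59 contigs among the 200 most abundant of both, 23 did. Of the 43, 11 were among the 100 most abundant contigs of the male pool and 12 among those of the female pool. The difference between the ranks had a median of 53 places and reached 180, and it was at most 20 places for 11 contigs. Across the 43 contigs, Spearman's rho between male and female CPM was 0.70, against 0.32 across the 130 contigs abundant in both. The window on the ratio raises this value by itself.

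Per unit of length the order was different. By the FPKM that the authors deposited, the 43 contigs ran from 13.9 to 1393 in the male pool, with a median of 181, and from 14.6 to 1379 in the female pool, with a median of 191. TRINITY_DN16998_c2_g12, the shortest of the group at 631 bases, ranked only 130th and 87th by CPM. It had 1244 male and 1379 female FPKM and ranked 30th and 18th by FPKM, the highest female FPKM of the 43. TRINITY_DN17501_c6_g3 had the highest male FPKM, 1393, with 768 in the female pool. Outside the 10 contigs with the highest mean CPM, TRINITY_DN19012_c1_g6, 1190 bases long, had 887 male and 493 female FPKM, and TRINITY_DN17604_c3_g2, 1823 bases long, had 479 and 370.

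The longest contig showed the opposite. TRINITY_DN18816_c2_g1, 24026 bases long, had 348 male and 362 female CPM but 13.9 and 14.6 FPKM, and ranked 5113th and 5310th by FPKM. It was 1 of 3 contigs of the group longer than 10000 bases. An FPKM of at least 100 in both pools was reached by 31 of the 43 contigs, and 8 were under 100 in both. Among the 100 highest by FPKM were 6 of the 43 contigs in each pool, and 5 in both. Across the 43 contigs Spearman's rho between length and FPKM was -0.73 in the male and -0.71 in the female pool. Between length and CPM it was -0.10 and -0.0086. FPKM divides by length, so the first pair of values holds length on both sides.

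The 43 contigs were long. Their median length was 3614 bases (quartiles 2284.5 and 5490.0, range 631 to 24026), against 372 bases for all contigs and 2558 for the 604 other contigs with at least 300 CPM in at least 1 pool. The 84 contigs more than 2-fold higher in the male pool and abundant in both had a median of 2424.5 bases. Those abundant in the male pool alone had 2209 and those abundant in the female pool alone 2894.5. At least 5000 bases were reached by 14 of the 43 contigs, or 32.6%, against 20.2% of the 604. Under 1000 bases was 1 of the 43, or 2.33%, against 11.9%. Length was also high outside the abundant class. The 2173 contigs with a ratio from 0.5 to 2 and at least 30 CPM in both pools, but under 300 in 1 or both, had a median of 3946 bases. Length adds to the read count that the rule used, so these medians are a description. They also depended on the scaling. Contigs that met the rule had a median of 2342.5 bases with TMM and 2137 with the median of ratios. It was 2329 with the median ratio of contigs abundant in both set to 1, and 1520 with an FPKM of at least 100. With the median of ratios limited to contigs with a mean count of at least 1000 it was 3552.5.

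**Figure D4:**
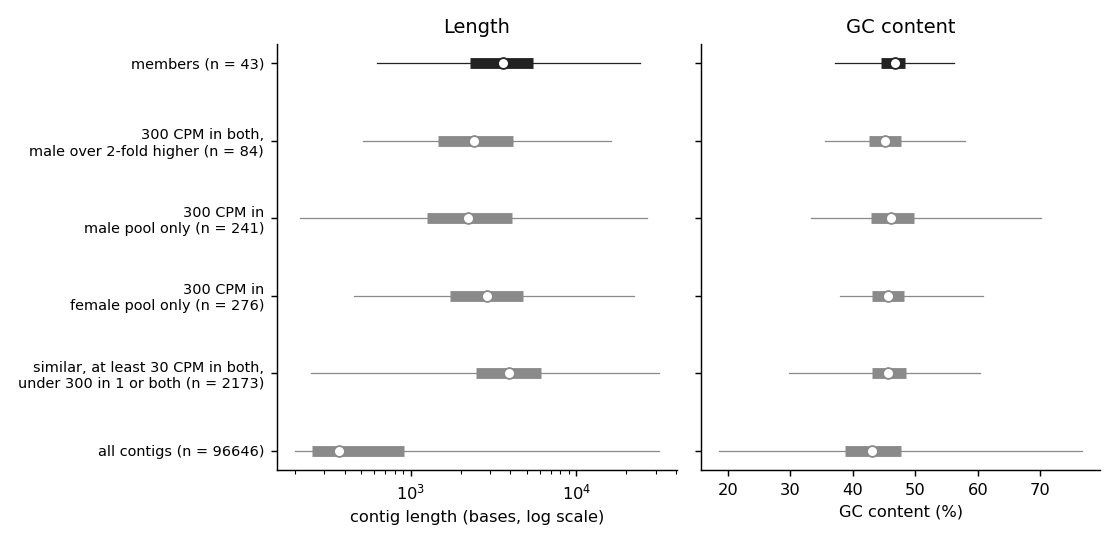
Length in bases (log scale) and GC content in percent for the 43 contigs and 5 other sets. The thin line runs from the lowest to the highest value, the thick line joins the quartiles, and the circle is the median. The median length of the 43 contigs, 3614 bases, lies above that of the other abundant sets and below that of the similar contigs of lower abundance, 3946 bases. All sets are by CPM. The contigs that met the rule with TMM, not drawn, had a median of 2342.5 bases.

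GC content lay in a narrow band. The median was 46.8% (quartiles 44.5 and 48.4), against 43.0% for all contigs and 45.7% for the 604 other abundant contigs. Contigs that met the rule with TMM or the median of ratios had a median of 45.2%. With the median of ratios limited to contigs with a mean count of at least 1000 it was 46.8%. From 40% to 50% GC were 37 of the 43 contigs, or 86.0%, against 75.7% of the 604, 78.1% of the 2173 similar contigs of lower abundance and 51.9% of all contigs. In the 84 contigs abundant in both pools and more than 2-fold higher in the male pool it was 81.0%. TRINITY_DN18243_c5_g5 had the highest GC content, 56.1%, with 362 male and 478 female CPM. TRINITY_DN17583_c3_g1 had the lowest, 37.1%, with 589 male and 317 female CPM. Weighted by reads, the mean GC content of the group was 46.8% in the male and 46.7% in the female pool. Over all contigs it was 45.5% and 46.0%.

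The single bases were close to balanced over the group. Summed over the 43 contigs, 27.1% of bases were A, 26.4% T, 24.0% G and 22.5% C. These sums are weighted by length, and the longest contig, of 24026 bases, had 7209 A and 4839 T. Without it T would outnumber A. Within a contig the 2 bases of a pair differed more. The median difference between the numbers of A and T, of either sign, was 5.62% of their sum. In the 604 other abundant contigs it was 3.95%, and over all contigs 7.89%. For G and C it was 3.71%, against 3.99% in the 604 and 6.98% over all contigs. A and G both exceeded their partners in 12 contigs, T and C both did in 6, and 25 were mixed. The strand of a contig is not given in the sources used here, so the sign of such a difference depends on which strand was assembled.

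By CPM the median ratio between the pools ran from 1.10 to 1.45 over classes of length and GC content, and under the median of ratios from 0.440 to 0.581. With the median of ratios limited to contigs with a mean count of at least 1000 it ran from 1.47 to 1.94. By CPM it was 1.31 in the 13 contigs under 2500 bases, 1.254 in the 16 of 2500 to 5000 bases and 1.162 in the 14 that were longer. By GC content it was 1.45 in the 10 contigs under 44%, 1.10 in the 20 from 44% to 48% and 1.31 in the 13 above. Both directions occurred by CPM in each of these 6 classes. Across the 43 contigs Spearman's rho of the ratio was -0.11 with length, -0.19 with GC content and 0.13 with mean CPM.

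Most of the 43 contigs had relatives in the assembly. Trinity, whose naming style the contigs bear, groups sequences that share stretches into components and splits a component into gene-level contigs, which can be paralogs, fragments of 1 transcript or splice forms. The 43 contigs belonged to 41 components. Only TRINITY_DN18631_c2_g1 and TRINITY_DN16185_c0_g1 were alone in theirs, the latter named after its values were seen, whereas 61.4% of all contigs were. The median component of the group had 8 contigs and the largest had 19. The 87 other contigs abundant in both pools also came from large components, with a median of 7 contigs, and 2 of them were alone. How reads that fit several contigs were shared out is not given in the sources used here, so the values of contigs with relatives are uncertain.

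The contigs of the group mostly carried the larger part of their component's reads, which follows in part from their choice by abundance. They held a median of 82.8% of the male and 77.5% of the female reads of their component. At least 90% in both pools was held by 10 of the 43, and under 50% in at least 1 pool by 8. The 10 include the 2 contigs that were alone in their component. The other contigs of these 41 components numbered 305, and 274 had at least 10 reads over both pools. Of the 274, 110 had a ratio from 0.5 to 2, or 40.1%, 104, or 38.0%, lay above that range and 60, or 21.9%, below it. Over all 52729 contigs with at least 10 reads the shares by CPM were 26.8% inside, 58.6% above and 14.6% below. The share inside varied with level, at 39.8% of all contigs with a geometric mean of 10 to 30 CPM and 45.9% at 30 to 100 CPM. The 274 were not matched for level, so their 40.1% cannot be read as a trait of relatives of the 43.

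**Figure D5:**
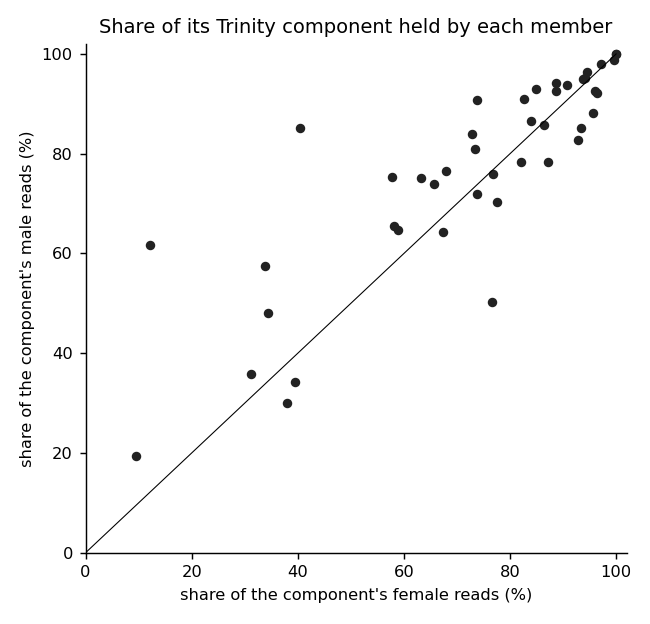
Share of the reads of its Trinity component that each of the 43 contigs held, in the male pool (vertical axis, percent) and the female pool (horizontal axis, percent). Points on the line held the same share in both pools. The point farthest above the line, TRINITY_DN17679_c2_g5, held 61.7% of male and 12.1% of female reads.

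Some components held a level contig beside a strongly unequal one. TRINITY_DN17679_c2_g5, one of the 43, had 569 male and 620 female CPM, a ratio of 0.918. Its relative TRINITY_DN17679_c2_g7, 1722 bases long, had 1 male read and 98225 female reads. Summed over the component the ratio was 0.181. TRINITY_DN18816_c2_g1, the longest of the group with a ratio of 0.960, had a relative of 4447 bases, TRINITY_DN18816_c2_g3, with 41 male and 11480 female reads, and the component sum had a ratio of 0.455. These were the only 2 of the 43 contigs whose component sum left the range from 0.5 to 2. TRINITY_DN17294_c3_g2 had 742 male and 713 female CPM beside TRINITY_DN17294_c3_g6, with no male read and 15341 female reads, and its component sum stayed inside the range at 0.613. The same component held TRINITY_DN17294_c3_g10, unequal in the other direction, with 329 male and 83.9 female CPM and a ratio of 3.92. The contigs of this paragraph other than the longest were picked after their values were seen, for the contrast within the component.

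A pair of the 43 contigs was held by each of 2 components. In the component of TRINITY_DN17336_c2_g3 and TRINITY_DN17336_c2_g8, a further contig, TRINITY_DN17336_c2_g1, had 1102 male and 516 female CPM and a ratio of 2.13, just outside the window. It was named after its values were seen. The 3 had lengths of 5086, 2050.0 and 1997 bases, and the component sum had a ratio of 1.68. In the other component, TRINITY_DN18782_c2_g2 held 76.0% of the male reads with a ratio of 0.952, and TRINITY_DN18782_c2_g3 held 19.5% with a ratio of 1.96.

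Under all 5 scalings 5 of the 43 contigs met the rule. They were TRINITY_DN17336_c2_g8, TRINITY_DN17604_c3_g2, TRINITY_DN17023_c5_g1, TRINITY_DN17815_c0_g1 and TRINITY_DN17047_c0_g4, the last 3 named only for this. By CPM their ratios lay from 1.31 to 1.48. Their male CPM ran from 475 to 1098 and their female CPM from 358 to 827. Since the scalings multiply ratios by 0.401 at one end and by 1.34 at the other, contigs outside a narrow range around these values leave the window under at least 1 of them.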

How the data were processed

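The 2 pooled libraries were analysed, 1 from male and 1 from female organs. The authors deposited read counts and FPKM per contig, per the file headers. The GC percent and base numbers of each contig were deposited by the authors as well. Tools named in the submitters' processing notes are cutadapt 1.8, Bowtie2 2.2.6 and DESeq 1.16.0. How reads were counted, and how those that fit several contigs were treated, is not given in the sources used here. CPM was computed here as a contig's count over its column's sum, and the rule was applied to CPM. All 52729 contigs with at least 10 reads over both pools, or the classes named, gave the background. Shares of reads have 95% Wilson intervals and ratios 95% exact (Clopper-Pearson) intervals. Both are for counting error only, since there is 1 library per sex. PCR reads without molecular identifiers are not independent molecules, so the intervals may be too narrow even for counting error. No differential test was possible. TMM came from edgeR 4.0.16. Under another scaling, effective library sizes kept the product of the totals. Trinity components are identifiers up to the last field. The rule was also applied to simulated counts with known ratios. That checks the computation alone and cannot speak to the scaling or to the single pool per sex. Named contigs were the 10 highest by mean CPM, the next 3 by mean FPKM, the extremes of length and GC content and those nearest each limit, and others are marked where named. The contigs and the alternatives were chosen with earlier results of these data known.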

Additional observations from a re-analysis of the deposited data

How the results depend on the processing

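The number of contigs that met the rule, 43, was the same with contigs of at least 500 bases and became 36 when the median of ratios was limited to contigs whose mean count reached 1000 (the limited median). It was 142 with TMM, 143 with the median of ratios, 143 with the median ratio of contigs abundant in both pools set to 1, 391 at a minimum of 100 CPM, 4 at 1000 CPM, 14 with ratios from 0.8 to its inverse, 106 with ratios from 0.25 to 4, 207 with counts per Trinity component and 75 with an FPKM of at least 100. Their share of male counts was, in that order of settings, 2.201% with the limited median, 17.6%, 18.9%, 17.8%, 10.7%, 1.31%, 0.988%, 14.6%, 15.9% and 4.53%, and their share of female counts 2.68%, 7.08%, 7.16%, 7.12%, 9.64%, 1.02%, 0.967%, 7.43%, 13.9% and 3.67%.

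The median length was 2342.5 bases with TMM, 2137 with the median of ratios, 2329 with the median of abundant contigs set to 1, 6821 for the longest contig of each component and 1520.0 by FPKM. Under the other settings it stayed within the 95% order-statistic interval of the main median. That interval treats contigs as independent draws and served only as a yardstick. The median GC content moved to 45.2% with TMM, with the median of ratios and with the median of abundant contigs set to 1, and to 48.1% at 1000 CPM. Contigs among the 100 most abundant of the male pool, 11 by CPM, numbered 65 with TMM, 69 and 66 with the next 2 scalings, 4 with the limited median, 4 at 1000 CPM, 2 with ratios from 0.8 to its inverse, 61 with ratios from 0.25 to 4, 29 by component and 7 by FPKM. In the female pool, from 12, they numbered 4 at 1000 CPM, 3 with ratios from 0.8 to its inverse, 22 with ratios from 0.25 to 4 and 7 by FPKM. The wider, narrower and higher limits change these numbers by construction. Each scaling changes them by rescaling CPM and so multiplying every ratio by a common factor. Why the scalings give different factors was not tested. Of the components chosen by their sums, 39 of 207 were among the 41 of the main contigs, and 31 of the 75 contigs chosen by FPKM were among the 43. Both alternatives on scaling beyond TMM and the median of ratios were chosen after seeing the data. No paired analysis was possible because there is 1 library per sex. Depth did not limit these contigs, but the single pool per sex did.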
